A study of Mus musculus with 6 samples.

Results

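The genes of the ERK cascade were followed in D2A1 spheroids treated with recombinant SLURP1. The group held 9 genes, chosen by name from the 54146 genes of the deposited table. Of these, 2 encode kinases of the cascade (Mapk3 and Map2k1) and 7 are genes whose transcription ERK drives (Dusp4, Dusp6, Spry2, Spry4, Spred1, Etv4 and Etv5). D2A1 is a mouse mammary tumor cell line, grown here as 3D cultures in Matrigel in DMEM with serum. Treated cultures received recombinant SLURP1 (rSLURP1), a secreted protein of the Ly6/uPAR family, and the control cultures received recombinant GST (rGST). Both proteins were given at 50 nM per the labels, and the study's methods state harvest on day 5. There were 3 libraries per treatment, all from the same cell line, and the labels do not say whether they came from separate cultures, so that p-values measure only the spread between these libraries. The study measured ERK and p38 phosphorylation after rSLURP1, and the question addressed here is how the transcripts of the cascade and of its targets differed between rSLURP1 and rGST.

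ERK signaling begins at RAS proteins, which switch on the RAF kinases. RAF phosphorylates the MEK kinases, and MEK phosphorylates the ERK kinases. Active ERK raises the transcription of a small set of genes that hold the pathway in check, including phosphatases that remove phosphate from ERK and the Sprouty and Spred proteins that act near RAS and RAF, and it also raises ETS transcription factors of the PEA3 family. The kinases themselves are controlled mainly by phosphorylation, which RNAseq does not measure. The level of a kinase transcript and the level of a target transcript therefore describe different things, and they are kept apart here.

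Values are TPM, relative transcript abundances that are corrected for transcript length and sum to the same total in each library. TPM keeps no read depth, so counting error is unknown. The test was limma on log2(TPM + 1), applied to the 12301 genes that reached 1 TPM in 3 libraries or more, and p-values were adjusted by the Benjamini-Hochberg method with a threshold of 0.05. Low genes change more than this scale shows. All 9 genes had a TPM above 1 in all 6 libraries. Over all tested genes the log2 fold change had a median of -0.33 as deposited and -0.0012 after each library was divided by the median ratio of its genes (median-ratio scaling). The log2 fold changes of the 9 genes and the counts over gene lists are therefore also given with that scaling. The rGST libraries held 12390 to 12449 genes at 1 TPM or more and the rSLURP1 libraries 11906 to 11981. Slurp1 itself was listed at 0 in all 6 libraries. Of 6 mammary epithelial markers, Epcam, Krt5 and Krt14 were listed at 0 throughout and Cdh1 did not exceed 0.07 TPM, whereas Krt18 lay between 191.1 and 199.4 TPM. Krt18 did not pass as deposited (0.015 on the log2 scale, adjusted p = 0.712 by limma) and was higher with median-ratio scaling (0.37, adjusted p = 1.07e-04 by limma). Krt8 was at 1.40 to 1.66 TPM with rGST and 0.51 to 0.81 TPM with rSLURP1, with a change of -0.60 on the log2 scale (adjusted p = 0.00968 by limma) that did not pass with median-ratio scaling (-0.41, adjusted p = 0.0554 by limma). The summed level of 9 fibroblast markers was 1008 to 1139 TPM with rGST and 75.2 to 85.3 TPM with rSLURP1, and the 5 that could be tested (Dcn, Lum, Pdgfra, Pdgfrb and Col1a1) were all lower, while Thy1 and Fap did not exceed 0.77 and 0.14 TPM. In bulk RNA, fewer cells of a kind and less RNA per cell cannot be told apart, and the part of these markers in the results below was not tested. Of 5 leukocyte markers, Cd68 was at 3.57 to 4.07 TPM with rGST and 7.75 to 10.6 TPM with rSLURP1, and the other 4 did not exceed 0.10 TPM. Of 4 mesenchymal markers Vim, Zeb1 and Fn1 were lower by limma as deposited and Cdh2 did not exceed 0.05 TPM. With median-ratio scaling the call of Zeb1 was lost (-0.23, adjusted p = 0.0529 by limma). No endothelial marker exceeded 0.31 TPM.

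Of the 9 genes, 4 were higher and 2 were lower with rSLURP1 at an adjusted p of 0.05 or less by limma. The higher genes were Dusp4, Dusp6, Etv4 and Etv5, which are all outputs, and the lower genes were the kinase Mapk3 and the output Spred1. Over all tested genes, 8.66% were higher and 58.5% were lower. With median-ratio scaling, 6 of the 9 were higher (Map2k1 and Spry4 in addition) and 1, Mapk3, was lower, against 26.0% and 25.2% of all genes. The median log2 fold change was 0.17 over the 9 genes as deposited and 0.51 with median-ratio scaling, against medians of -0.33 and -0.0012 over all genes. In 5 of the 9 genes every rSLURP1 library lay above every rGST library, as in 9.75% of all tested genes, and in 3 every rSLURP1 library lay below, as in 61.7%. No member passed a 2-fold change as deposited. In limma, 6 of the 9 had an unadjusted p of 0.05 or less, and the same 6 passed after adjustment. Over all tested genes, 8265 of 12301 passed after adjustment in either direction, which is a similar share. The largest change among the 9 was that of Etv5.

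**Figure D1:**
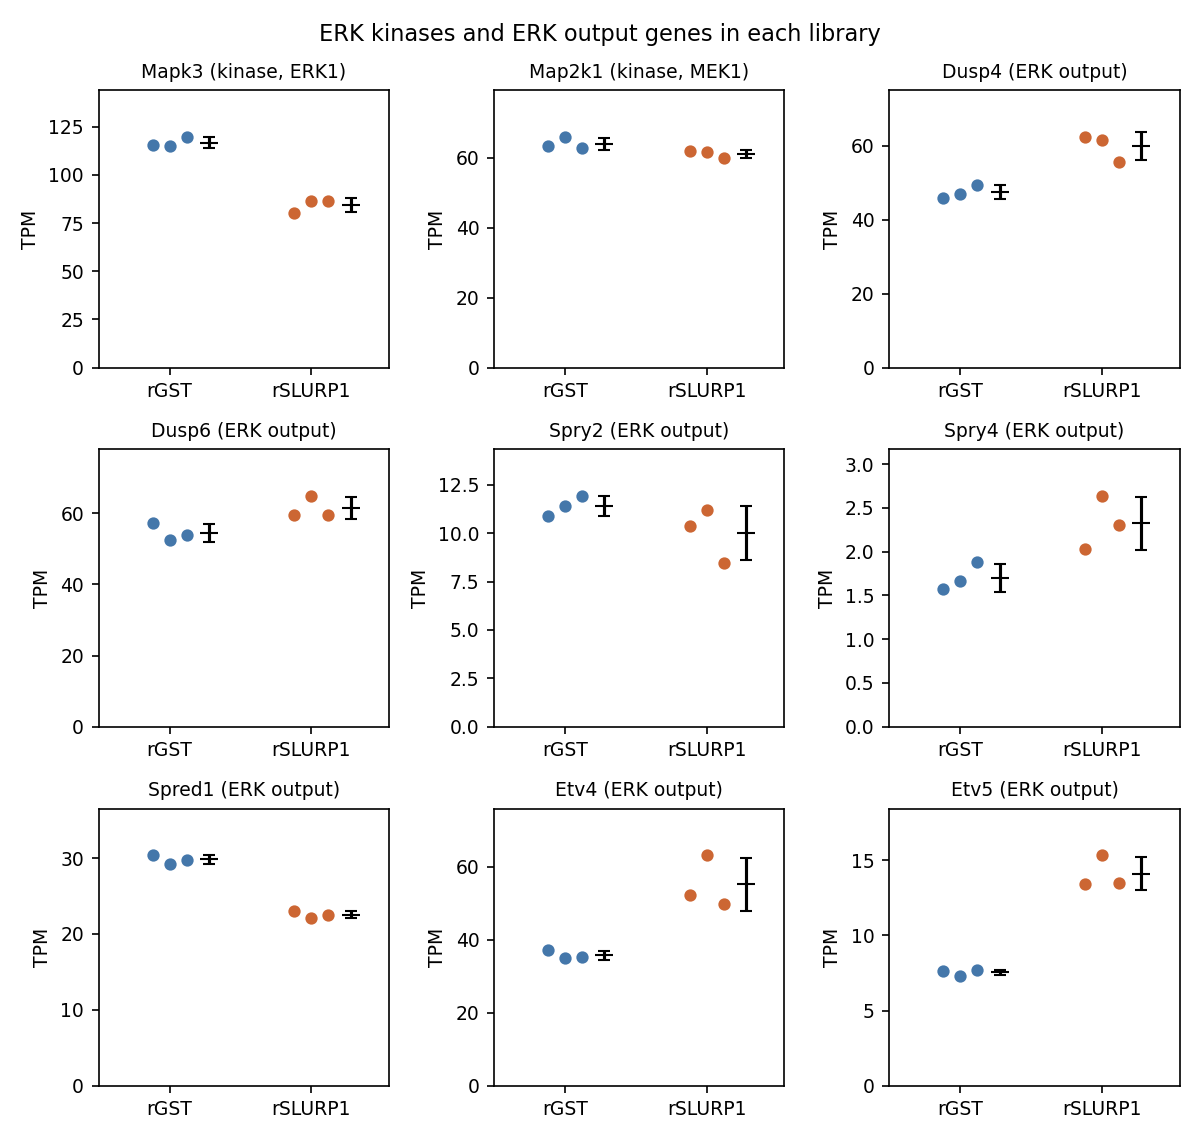
TPM of each of the 9 genes in the 3 rGST and 3 rSLURP1 libraries (points, replicates 1 to 3 from left to right), with the mean and SD beside them and axes from 0. Dusp4, Dusp6, Spry4, Etv4 and Etv5 have all rSLURP1 points above the rGST points, Mapk3, Map2k1 and Spred1 have them below, and those of Spry2 overlap.

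Mapk3, which encodes ERK1 (ENSMUSG00000063065.13, GRCm38 chromosome 7, 126759601 to 126765819, plus strand), was at 115.3, 115.1 and 119.8 TPM with rGST and at 80.3, 86.3 and 86.5 TPM with rSLURP1. The groups did not overlap, and the mean went from 116.7 ± 2.65 to 84.4 ± 3.50 TPM (SD, n = 3 each). Its log2 fold change was -0.46 (SE 0.045, adjusted p = 8.69e-05 by limma). This change lay close to the middle of all genes, at percentile 35.1 of the tested log2 fold changes, and with median-ratio scaling it was -0.11 (adjusted p = 0.0485 by limma). Mapk3 therefore fell by 0.14 more than the median gene on the log2 scale.

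Map2k1, which encodes the ERK activating kinase MEK1 (ENSMUSG00000004936.8, chromosome 9, 64185770 to 64253631, minus strand), was at 63.3, 65.9 and 62.6 TPM with rGST and at 61.7, 61.7 and 59.7 TPM with rSLURP1. The rSLURP1 values lay just under the rGST values. The log2 fold change of -0.07 did not pass the threshold (adjusted p = 0.216 by limma, 95% confidence interval -0.17 to 0.036), and with median-ratio scaling its sign turned, at 0.28 (adjusted p = 9.72e-04 by limma).

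Map2k1 was next compared with Map2k2 (MEK2), its nearest relative, within each library, since a share of summed TPM does not depend on how libraries are scaled. Map2k1 made up 39.9%, 39.9% and 38.6% of the Map2k1 and Map2k2 total with rGST and 44.9%, 41.9% and 43.0% with rSLURP1. All rSLURP1 shares were above all rGST shares, by 3.76 percentage points on average (exact permutation test, two-sided p = 0.1, the smallest p that 3 libraries against 3 can give). Map2k2 had a log2 fold change of -0.29 (adjusted p = 0.00227 by limma), and with median-ratio scaling this turned to 0.064 (adjusted p = 0.247 by limma).

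Among the outputs, the phosphatases are described first. Dusp4 encodes a nuclear phosphatase of MAP kinases (ENSMUSG00000031530.6, chromosome 8, 34807297 to 34819894, plus strand). It was at 45.8, 47.0 and 49.4 TPM with rGST and at 62.4, 61.5 and 55.5 TPM with rSLURP1, with no overlap. The mean rose from 47.4 ± 1.87 to 59.8 ± 3.77 TPM (SD, n = 3 each), which is a log2 fold change of 0.33 (SE 0.060, adjusted p = 0.00206 by limma) that was 0.68 with median-ratio scaling (adjusted p = 6.85e-05 by limma). Dusp6 encodes a cytoplasmic phosphatase with a preference for ERK (ENSMUSG00000019960.8, chromosome 10, 99263231 to 99267489, plus strand). It was at 57.4, 52.4 and 54.0 TPM with rGST and at 59.6, 65.0 and 59.6 TPM with rSLURP1, again with no overlap, although the highest rGST library was only slightly below the lowest rSLURP1 library. Its log2 fold change was 0.17 (SE 0.056, adjusted p = 0.0321 by limma) as deposited and 0.51 with median-ratio scaling (adjusted p = 1.23e-04 by limma). The call for Dusp6 as deposited was lost when rGST replicate 2 (adjusted p = 0.104 by limma), rGST replicate 3 (adjusted p = 0.0783) or rSLURP1 replicate 2 (adjusted p = 0.0873) was left out.

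A closely related phosphatase moved the other way. Dusp7, which like Dusp6 encodes a cytoplasmic ERK phosphatase, was at 18.0 to 19.1 TPM with rGST and 7.29 to 8.92 TPM with rSLURP1, a log2 fold change of -1.12 (adjusted p = 2.86e-05 by limma) that was -0.79 with median-ratio scaling (adjusted p = 3.49e-04 by limma). Dusp6 made up 74.4% to 75.0% of the Dusp6 and Dusp7 total in the rGST libraries and 87.0% to 89.9% in the rSLURP1 libraries (two-sided exact permutation test, p = 0.1, the smallest possible). This share was chosen after its values were seen, so the test adds nothing to them. Dusp5, a nuclear ERK phosphatase, went from 5.70 ± 0.843 to 3.82 ± 0.460 TPM (SD, n = 3 each), and its log2 fold change was -0.47 (adjusted p = 0.0140 by limma), a call that was lost with median-ratio scaling (-0.18, adjusted p = 0.274 by limma).

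Among the 9 genes, the largest increases were those of the PEA3 factors Etv5 and Etv4. Etv5 (ENSMUSG00000013089.15, chromosome 16, 22381309 to 22439719, minus strand) encodes an ETS transcription factor. It was at 7.63, 7.33 and 7.67 TPM with rGST and at 13.5, 15.4 and 13.5 TPM with rSLURP1. Every rSLURP1 library was well above the rGST libraries, and the log2 fold change was 0.82 (SE 0.081, adjusted p = 9.35e-05 by limma), or 1.14 with median-ratio scaling (adjusted p = 1.83e-05 by limma). As deposited it stood at percentile 98.0 of all tested genes. Etv4 (ENSMUSG00000017724.14, chromosome 11, 101769742 to 101785371, minus strand), a close relative, was at 37.2, 34.9 and 35.1 TPM with rGST and at 52.2, 63.3 and 49.9 TPM with rSLURP1. The rSLURP1 libraries were all higher and more spread, and the log2 fold change was 0.60 (SE 0.089, adjusted p = 6.77e-04 by limma), or 0.95 with median-ratio scaling (adjusted p = 5.95e-05 by limma). Without rSLURP1 replicate 2, the highest library for both genes, the log2 fold change was 0.50 for Etv4 and 0.76 for Etv5.

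The third PEA3 factor, Etv1, was at 10.8 to 12.3 TPM with rGST and 15.6 to 20.5 TPM with rSLURP1 (log2 fold change 0.56, adjusted p = 0.00258 by limma, and 0.89 with median-ratio scaling). Summed over Etv1, Etv4 and Etv5, the family went from 54.8 ± 2.08 to 86.8 ± 10.7 TPM (SD, n = 3 each). Within it, Etv4 was at 64.6% to 65.9% of the sum with rGST and 62.3% to 64.2% with rSLURP1, and Etv5 was at 13.4% to 14.1% and 15.5% to 16.8%.

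The regions just before the start sites of Etv5, the output that rose most, of the phosphatase Dusp6 and of the kinase Map2k1 are shown. As deposited, Etv5 and Dusp6 were called higher and Map2k1 was not called. With median-ratio scaling each of them was called higher, at log2 fold changes of 1.14, 0.51 and 0.28. The regions were read from RefSeq promoter windows on GRCm38.p6 (250 bases before the start and 50 after), which matched 5 of the 9 genes with 6 windows. Only bases before both the RefSeq start and any annotated exon are printed. Capitals mark CCGGAA, the core of an ETS site, and CCAAT in either direction (ATTGG on the strand shown). Sequences run 5′ to 3′ on the strand of the gene. The Etv5 region is chr16:22439720-22439820 (minus strand), that of Dusp6 is chr10:99262981-99263230 (plus strand) and that of Map2k1 is chr9:64253632-64253855 (minus strand).
Etv5: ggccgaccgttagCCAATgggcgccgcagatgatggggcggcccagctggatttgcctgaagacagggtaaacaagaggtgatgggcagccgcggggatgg
Dusp6: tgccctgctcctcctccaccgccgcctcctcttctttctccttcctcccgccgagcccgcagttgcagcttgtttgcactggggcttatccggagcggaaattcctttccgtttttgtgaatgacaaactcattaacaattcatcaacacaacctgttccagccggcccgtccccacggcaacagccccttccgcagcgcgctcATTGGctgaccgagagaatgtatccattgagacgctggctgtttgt
Map2k1: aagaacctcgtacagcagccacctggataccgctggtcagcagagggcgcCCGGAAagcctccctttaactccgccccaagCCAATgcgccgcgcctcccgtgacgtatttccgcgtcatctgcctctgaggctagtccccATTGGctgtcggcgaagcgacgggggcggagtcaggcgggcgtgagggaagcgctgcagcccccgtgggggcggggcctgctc

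On either strand of the whole windows, CCGGAA was found in 2 of the 6 windows, Map2k1 and Spry2, and in 14.9% of all 32851 promoter windows of this length. The longer ETS site CCGGAAGT (3.89% of all windows), the cyclic AMP response element TGACGTCA (1.79%), the AP-1 site TGANTCA (7.81%) and the CArG box bound by SRF (1.63%) were in none of the 6. The CCAAT box, added after the sequences were seen, was in 4 of the 6 windows, those of Map2k1 and Dusp6 and both of Etv5, against 37.4% of all windows. These matches describe letters in a short window and do not locate a bound site.

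Turning to the inhibitors near RAS and RAF, the Spred gene of the group fell as deposited. Spred1 encodes an adaptor that brings the RAS inactivator neurofibromin to the membrane (ENSMUSG00000027351.14, chromosome 2, 117121374 to 117182279, plus strand). It was at 30.4, 29.2 and 29.8 TPM with rGST and at 23.1, 22.1 and 22.5 TPM with rSLURP1, tightly grouped in each treatment and without overlap. Its log2 fold change of -0.39 (SE 0.052, adjusted p = 4.22e-04 by limma) was only 0.06 below the median of all genes, and it did not pass with median-ratio scaling (-0.05, adjusted p = 0.494 by limma, 95% confidence interval -0.17 to 0.079). Spred2 and Spred3 had log2 fold changes of -0.20 and -0.29 as deposited (adjusted p = 0.0134 and 0.0117 by limma). With median-ratio scaling both turned positive, at 0.14 and 0.050 (adjusted p = 0.0417 and 0.605 by limma), so that Spred2 was called higher and Spred3 was not called. Nf1, which encodes neurofibromin, was at -0.46 as deposited (adjusted p = 7.21e-04 by limma) and -0.11 with median-ratio scaling (adjusted p = 0.234 by limma).

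The Sprouty genes did not move as a block. Spry2 (ENSMUSG00000022114.5, chromosome 14, 105891947 to 105896819, minus strand), an inhibitor of receptor tyrosine kinase signaling, was at 10.9, 11.4 and 11.9 TPM with rGST and at 10.4, 11.2 and 8.48 TPM with rSLURP1. These groups overlapped, and neither the log2 fold change of -0.18 as deposited (adjusted p = 0.177 by limma, 95% confidence interval -0.43 to 0.072) nor the value of 0.15 with median-ratio scaling (adjusted p = 0.264 by limma) passed the threshold. Spry4 (ENSMUSG00000024427.6, chromosome 18, 38586247 to 38601415, minus strand) was the lowest of the 9 genes, at 1.57, 1.66 and 1.88 TPM with rGST and at 2.03, 2.64 and 2.30 TPM with rSLURP1. Its rSLURP1 libraries were all above its rGST libraries. The log2 fold change of 0.30 did not pass as deposited (SE 0.134, adjusted p = 0.0845 by limma, 95% confidence interval -0.017 to 0.61), and it passed with median-ratio scaling (0.53, adjusted p = 0.0109 by limma) and with eBayes without trend (adjusted p = 0.0227 by limma).

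Spry1, the Sprouty gene outside the group, had a far larger change than either relative. It was at 102.9, 101.5 and 96.3 TPM with rGST and at 19.1, 19.1 and 21.0 TPM with rSLURP1, a log2 fold change of -2.29 (SE 0.057, adjusted p = 2.30e-07 by limma) that was -1.94 with median-ratio scaling. Because Spry1 was the main Sprouty transcript of the rGST libraries, at 87.5% to 89.2% of the summed TPM of Spry1, Spry2 and Spry4, the family sum went from 113.4 ± 2.83 to 32.1 ± 0.779 TPM (SD, n = 3 each). In the rSLURP1 libraries Spry1 held 58.0% to 66.1%, Spry2 26.7% to 34.0% and Spry4 6.44% to 8.01% of that sum, against 9.43% to 10.8% for Spry2 and 1.36% to 1.71% for Spry4 with rGST (two-sided exact permutation test, p = 0.1 each, the smallest possible). These shares were chosen after their values were seen, so the tests add nothing to them. Spred1 held 32.7% to 34.1% of the Spred sum with rGST and 29.9% to 32.6% with rSLURP1.

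**Figure D2:**
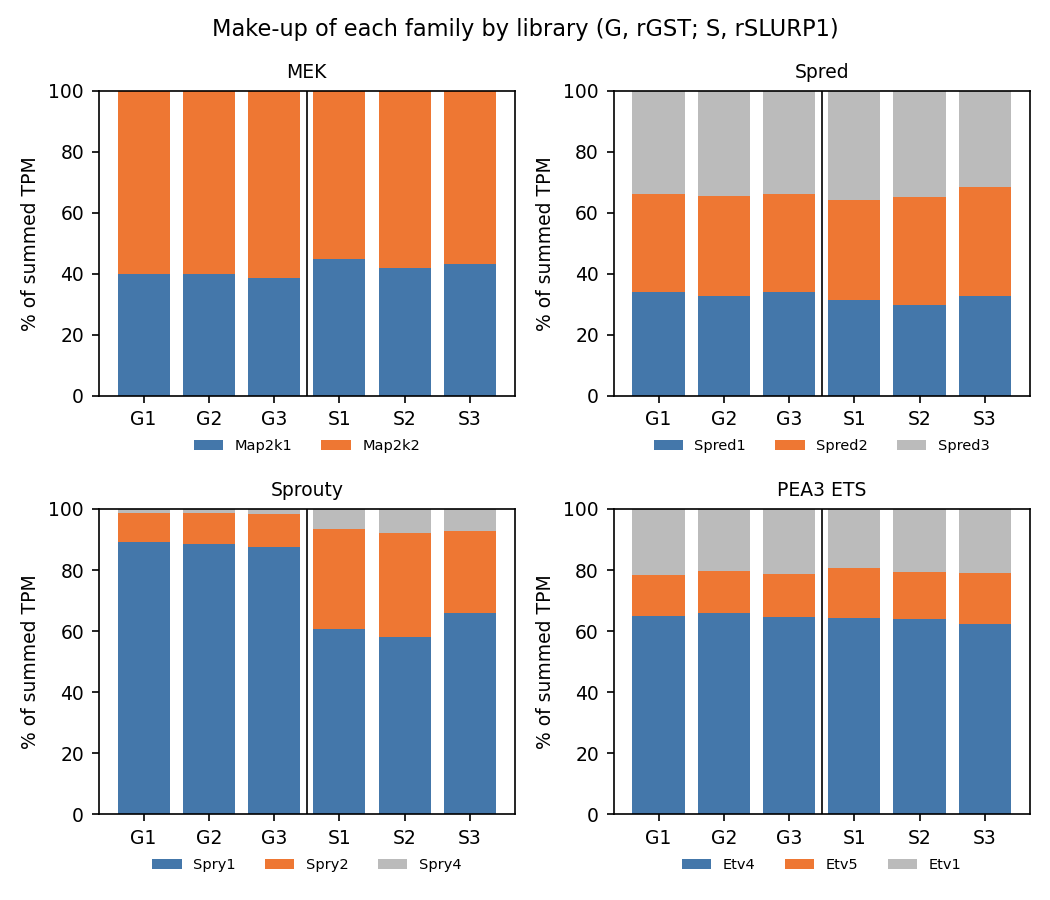
Share of each gene in the summed TPM of its family (percent, bars from 0 to 100) in each rGST (G) and rSLURP1 (S) library, for the MEK, Spred, Sprouty and PEA3 families. Spry1 goes from at least 87.5% to at most 66.1% of the Sprouty sum, while Etv4 stays between 62.3% and 65.9% of the PEA3 sum.

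Kinases and outputs were then set side by side. The mean log2(TPM + 1) of the 7 outputs minus that of the 2 kinases was -2.19, -2.25 and -2.18 in the rGST libraries and -1.70, -1.63 and -1.79 in the rSLURP1 libraries, a difference that does not depend on scaling beyond the pseudocount. The mean of the outputs was thus closer to that of the kinases in every rSLURP1 library. Per unit of Mapk3 TPM, Etv5 went from 0.0646 ± 0.0014 to 0.167 ± 0.011, Etv4 from 0.306 ± 0.015 to 0.653 ± 0.078 and Dusp4 from 0.406 ± 0.0082 to 0.710 ± 0.068 (SD, n = 3 each). Dusp6 went from 0.468 ± 0.026 to 0.728 ± 0.034 and Spry4 from 0.0146 ± 0.0010 to 0.0275 ± 0.0028 on the same measure. For Spred1 the ratio was 0.256 ± 0.0078 and 0.268 ± 0.017, and for Spry2 it was 0.0977 ± 0.0029 and 0.119 ± 0.018 (SD, n = 3 each), with overlapping libraries for both. These ratios depend on the kinase chosen. Most tested genes had a higher log2 fold change than Mapk3 (percentile 35.1), whereas Map2k1 stood at percentile 75.6. Spred1 (-0.39) and Spry2 (-0.18) had lower log2 fold changes than Map2k1 (-0.07).

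The order of levels, which TPM allows because it is per length, changed in the middle of the group. With rGST the order from high to low was Mapk3, Map2k1, Dusp6, Dusp4, Etv4, Spred1, Spry2, Etv5 and Spry4, and no neighbours overlapped between libraries. With rSLURP1, Mapk3 stayed highest at a mean of 84.4 TPM, and Dusp6 (61.4), Map2k1 (61.1), Dusp4 (59.8) and Etv4 (55.1) followed as neighbours whose libraries overlapped. Spred1 (22.6), Etv5 (14.1), Spry2 (10.0) and Spry4 (2.32) came next with no overlap between neighbours, so that Etv5 and Spry2 exchanged places.

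**Figure D3:**
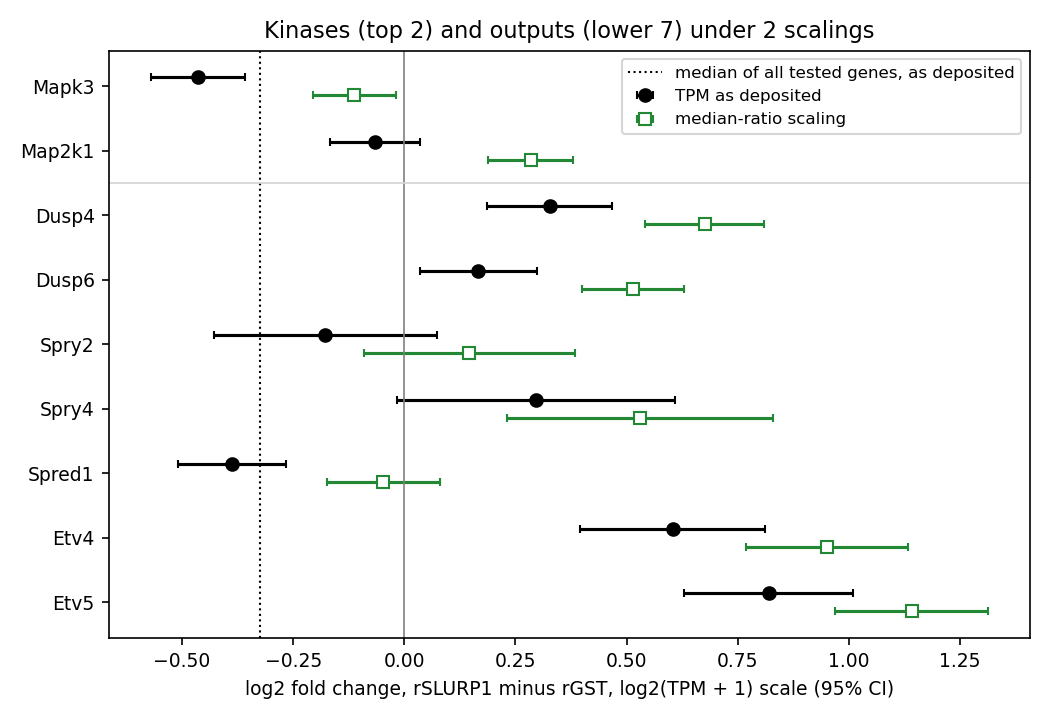
Log2 fold change (rSLURP1 minus rGST, on the log2(TPM + 1) scale) of the 9 genes as deposited (filled circles) and with median-ratio scaling (open squares), with 95% confidence intervals from limma. The dotted line is the median of all tested genes as deposited (-0.33). As deposited, Mapk3, Spred1 and Spry2 lie near that line. Dusp4, Dusp6, Spry4, Etv4 and Etv5 lie right of 0 under both scalings, and the interval of Spry4 as deposited includes 0.

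The rest of the cascade was mostly lower as deposited, as were most genes. Of 21 further cascade genes, 14 were lower and 1 was higher by limma, against 58.5% and 8.66% of all tested genes. Their median change was -0.22 on the log2 scale. With median-ratio scaling 3 were lower and 7 higher, against 25.2% and 26.0% of all tested genes, with a median of 0.11. Shc1, an adaptor of receptor tyrosine kinases, and Pebp1, an inhibitor of RAF, were called in opposite directions, at -0.19 and -0.17 as deposited (adjusted p = 0.00253 and 0.00545 by limma) and at 0.16 and 0.18 with median-ratio scaling (adjusted p = 0.00616 and 0.00284 by limma). Gab1, an adaptor that links receptors to RAS signaling, Araf, a RAF kinase, and Ksr1, a scaffold of RAF, MEK and ERK, were lower under both scalings, with log2 fold changes of -1.28, -0.99 and -0.61 as deposited (adjusted p = 1.02e-05, 3.92e-06 and 3.59e-04 by limma). The call of Ksr1 was lost with quantile normalization (-0.21, adjusted p = 0.0697 by limma).

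Araf went from 112.2 ± 1.19 to 55.9 ± 2.92 TPM (SD, n = 3 each), with no overlap between the treatments. Braf, another RAF kinase, was at -0.41 on the log2 scale as deposited (adjusted p = 0.00434 by limma) and did not pass with median-ratio scaling (-0.092, adjusted p = 0.401 by limma).

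Beyond the 7 outputs, further genes that ERK is known to drive went both ways. Of 16 such genes 15 could be tested, since Epha4 did not exceed 0.36 TPM. By limma, 6 of the 15 passed as higher and 8 as lower, against 8.66% and 58.5% of all tested genes. Their median change was -0.20 on the log2 scale. With median-ratio scaling 8 passed as higher and 5 as lower, against 26.0% and 25.2% of all tested genes, with a median of 0.14. At a 2-fold change 1 was higher and 4 were lower as deposited, against 1.15% and 7.06% of all tested genes. At 2-fold with median-ratio scaling 4 were higher and 2 lower, against 306 and 463 of the 12301 tested genes. Fos, an immediate early gene and AP-1 subunit, rose from 4.72 ± 1.003 to 16.1 ± 1.12 TPM (SD, n = 3 each; log2 fold change 1.60, adjusted p = 4.06e-05 by limma, and 1.91 with median-ratio scaling). Ier3, an early response gene, was at 401.8 to 422.3 TPM with rGST and 687.4 to 918.9 TPM with rSLURP1 (log2 fold change 0.94, adjusted p = 9.92e-05 by limma, and 1.298 with median-ratio scaling).

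Other outputs fell under both scalings. Ccnd1, which encodes the G1 cyclin D1, was at 53.9 to 64.6 TPM with rGST and 22.1 to 23.4 TPM with rSLURP1 (log2 fold change -1.36, adjusted p = 6.11e-06 by limma, and -1.02 with median-ratio scaling). Il17rd, which encodes the ERK pathway inhibitor Sef, was at 4.07 to 4.91 TPM and 1.58 to 1.71 TPM (log2 fold change -1.02, adjusted p = 1.94e-04 by limma, and -0.77 with median-ratio scaling). Together with Spry1 and Dusp7, these are the 4 genes that were lower at least 2-fold as deposited, of which Spry1 and Ccnd1 were so with median-ratio scaling. The other genes called in the same direction under both scalings were Etv1, Phlda1, Epha2 and Fosl1, with log2 fold changes from 0.33 to 0.94 as deposited, and Egr1, at -0.92. The feedback inhibitors therefore included genes that rose (Dusp4 and Dusp6) and genes that fell under both scalings (Spry1, Dusp7 and Il17rd).

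**Figure D4:**
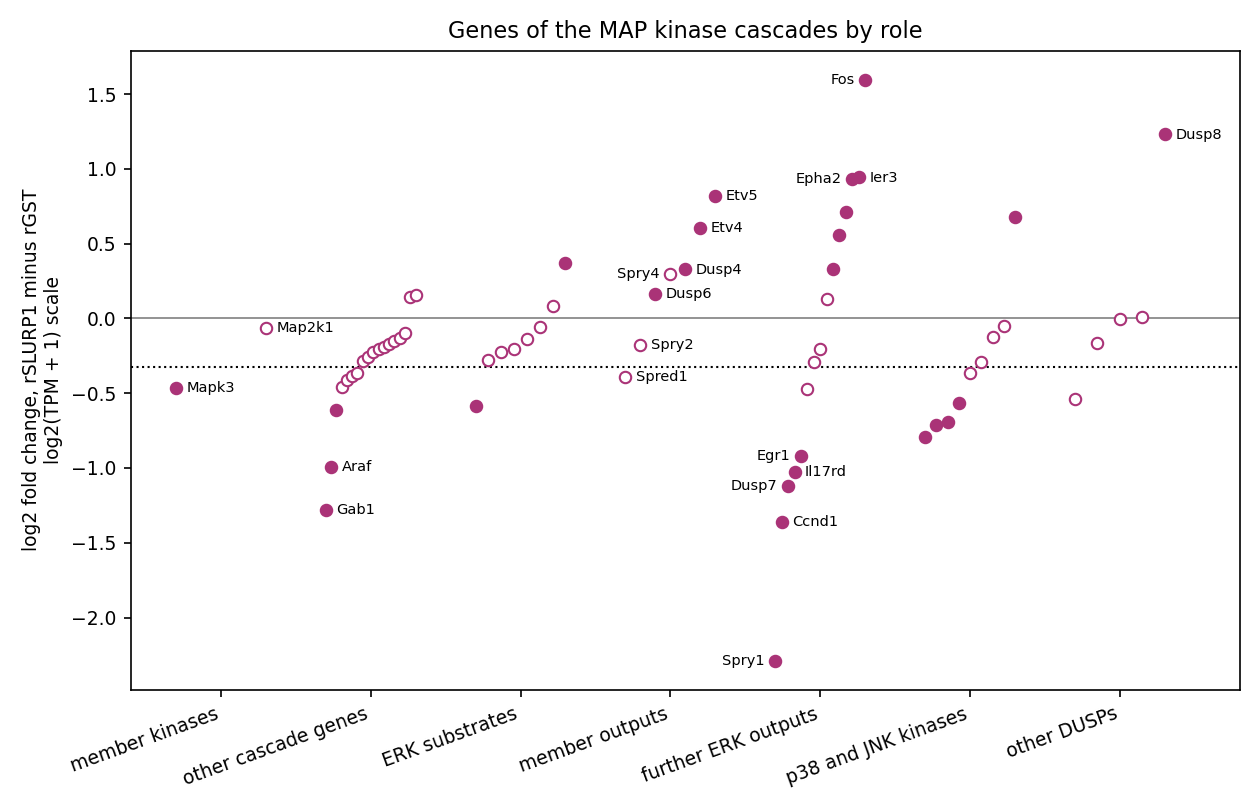
Log2 fold change (rSLURP1 minus rGST, log2(TPM + 1) scale, TPM as deposited) of tested genes by role, sorted within each role. Filled points passed an adjusted p of 0.05 in the same direction as deposited and with median-ratio scaling, and the dotted line is the median of all tested genes (-0.33). Not every cascade gene is drawn. The ERK outputs spread from -2.29 for Spry1 to 1.60 for Fos.

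Of the 8 kinases and factors that ERK phosphorylates, 1 was higher and 3 were lower by limma, against 8.66% and 58.5% of all tested genes. With median-ratio scaling 4 were higher and 1 lower, against 26.0% and 25.2% of all tested genes. Mknk2, a kinase of the translation factor eIF4E, was lower under both scalings (-0.59, adjusted p = 4.58e-05 by limma), and Rps6ka2, an RSK kinase, was higher under both (0.37, adjusted p = 0.0178 by limma), although its call was lost without rGST replicate 1, rGST replicate 2 or rSLURP1 replicate 2 (adjusted p from 0.0526 to 0.0591 by limma). For the parallel p38 and JNK branches, 9 of 11 genes were tested, of which 1 was higher and 6 were lower, against 8.66% and 58.5% of all tested genes. With median-ratio scaling 2 of these were higher and 4 lower, against 26.0% and 25.2% of all tested genes. Mapk14, which encodes p38 alpha, was at 47.0 to 47.3 TPM with rGST and 37.2 to 39.5 TPM with rSLURP1 (log2 fold change -0.29, adjusted p = 9.12e-04 by limma), and it turned to 0.052 with median-ratio scaling (adjusted p = 0.402). Mapk11, which encodes p38 beta, rose from 8.19 ± 0.635 to 13.7 ± 0.566 TPM (SD, n = 3 each; log2 fold change 0.68, adjusted p = 2.61e-04 by limma). The activating kinases Map2k7, Map2k6 and Map2k3 had log2 fold changes of -0.79, -0.69 and -0.57, and Mapk12 (p38 gamma) had -0.71, and these 4 were lower under both scalings. With quantile normalization the calls of Mapk12 and Map2k6 were lost (adjusted p = 0.115 and 0.0565 by limma).

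Phosphatases that act on several MAP kinases differed among themselves. Dusp8 went from 0.603 ± 0.146 to 2.76 ± 0.314 TPM (SD, n = 3 each; log2 fold change 1.23, adjusted p = 2.36e-04 by limma). Dusp1 was at -0.54 as deposited (adjusted p = 0.00137 by limma) and did not pass with median-ratio scaling (-0.19, adjusted p = 0.0877). Dusp2, Dusp10 and Dusp16 did not pass as deposited, with log2 fold changes of -0.0034, -0.16 and 0.011, and with median-ratio scaling they were at 0.20, 0.16 and 0.36, of which that of Dusp16 passed (adjusted p = 0.00177 by limma).

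Genes with a pattern like that of Mapk3, which was lower, were more common than those like Dusp6, which was higher. As deposited, 58.5% of all tested genes were lower and 8.66% were higher. Over the 6 libraries, in which the difference between treatments takes part, 3785 of the 12301 tested genes had a Pearson r above 0.95 with Mapk3 in log2(TPM + 1). The closest were Ogdhl (0.9998), ENSMUSG00000102869.2 (0.9991) and Mtcp1 (0.9990). For Dusp6 there were 31 such genes, and the closest were Uap1 (0.998), Mpzl3 (0.988) and Bud31 (0.987). These are descriptions over 6 libraries in 2 groups.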

How the data were processed

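RNAseq of 3 rGST and 3 rSLURP1 libraries was grouped by the sample labels. The authors trimmed reads with Cutadapt (1.18 in the submitters' processing notes), aligned them to mm10 with STAR (2.5.2b), quantified genes with RSEM (1.3.3) and deposited TPM per gene, with 1 column per library; other versions of Cutadapt and RSEM are named in the paper's methods, which also give GENCODE M12 as the annotation. For library preparation, TruSeq mRNA stands in the labels and Smart-seq2 in the methods. TPM keeps no depth, so counting error is unknown, and a count test does not apply.

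Genes reaching 1 TPM in 3 or more libraries were tested on log2(TPM + 1) with limma (version 3.58.1, R 4.3.3; lmFit, eBayes with trend), without a block, over all 12301 genes, with Benjamini-Hochberg adjustment and the study's thresholds (0.05 and 2-fold). Median-ratio scaling used the tested genes above 0 in all libraries. Shares of families other than MEK were chosen after their values were seen. Gene coordinates are from GENCODE M21 (GRCm38), to which 54079 of 54146 identifiers matched without version; no exon of another gene overlapped the exons of the 9 genes. The script was tested on simulated data. The members, gene lists and tests were chosen with earlier results of these data known. The genes named were the 9 members, 7 fixed genes, and from each list up to 6 genes with the largest log2 fold change called in the same direction under both scalings, or all tested genes of the phosphatase list. Some cascade genes that this rule names are not reported here, although the counts over the list include them. Epha2, Etv1, Phlda1, Fosl1, Egr1, Dusp5, Spred2, Spred3, Nf1, Shc1 and Pebp1 were named after their values were seen. Alternatives were a pseudocount of 0.1, other filters, median-ratio and quantile scaling, eBayes without trend, a replicate block and each library left out. Figures used matplotlib 3.10.9 (Python 3.11.15).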

Additional observations from a re-analysis of the deposited data

How the results depend on the processing

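The number of the 9 genes that were lower went from 2 to 1 with median-ratio scaling, to 1 with quantile normalization and to 0 with a replicate block and median-ratio scaling together. On the same 3 settings the cascade genes went from 1 higher to 7, 5 and 7 and from 14 lower to 3, 3 and 2, and the further outputs from 8 lower to 5, 5 and 5. Over all 12301 tested genes, those higher went from 1065 to 3198, 3111 and 3017. Those lower went from 7200 to 3094, 2905 and 2854. The log2 fold change turned positive on these 3 settings for Map2k1 (0.28, 0.23 and 0.28), Spry2 (0.15, 0.23 and 0.15), Mapk14 (0.052, 0.047 and 0.052), Dusp2 (0.20, 0.34 and 0.20) and Dusp10 (0.16, 0.24 and 0.16), and for Map2k2 with median-ratio scaling with and without the block (0.064 and 0.064). By construction, these settings shift all genes: 87.1% of calls were lower as deposited, 49.2% with median-ratio scaling and 48.3% with quantile normalization. Leaving out 1 library at a time gave 906 to 1020 of the 12301 tested genes higher and 6605 to 6999 lower. The same fits gave 1 to 2 cascade genes higher (2 without rSLURP1 replicate 3) and 12 to 13 lower, 3 to 4 of the 9 genes higher and 2 lower, and log2 fold changes of -0.16 to 0.12 for Dusp2 and -0.041 to 0.041 for Dusp16, neither of which passed. The cause was not tested.

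Libraries of the same number did not deviate together (correlations from -0.061 to -0.034), so the numbers were not taken as pairs. With the replicate block 7962 genes were called against 8265 without it, and Dusp6 was no longer called (adjusted p = 0.0670 by limma), which left 3 of the 9 genes higher. For the share of Map2k1, whose mean difference of 3.76 percentage points a block cannot alter in this balanced design, the exact permutation p was 0.25 within the block, the smallest it allows, against 0.1 without it. The call of Dusp6 was also lost without the filter on low genes (adjusted p = 0.0550 by limma) and with eBayes without trend (adjusted p = 0.0577 by limma), and that of Mapk3 with the block and median-ratio scaling together (adjusted p = 0.0598 by limma). On that last setting Ksr1, Mapk12 and Map2k6 also lost their calls (adjusted p = 0.0530, 0.0636 and 0.0507 by limma). Dusp4, Etv4 and Etv5 passed under every alternative tried. Because TPM keeps no depth, the counting error of the lowest gene, Spry4, is unknown.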
